A study of Mus musculus with 2 samples.

Results

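The 10 genes described here encode the proteins that bring iron into a cell, store it, release it and sense it. They were taken by symbol (Trf, Tfrc, Slc11a2, Slc11a1, Fth1, Ftl1, Slc40a1, Cp, Aco1 and Ireb2) and found through the RefSeq transcript accession that each array probe carries. All 10 had at least 1 probe and together they had 16, of 20884 named genes and 39425 probes kept in all. Their RNA was read on 2 Agilent mouse arrays with a single dye, 1 array for each of the groups compared. The first group, SPAD, is differentiated small proliferative adipocytes, and the second, SVCD, is differentiated stromal vascular cells (spelt viscular in the labels). Both came from the epididymal fat of male C57/BL mice, with no genetic change and no animal age named in the labels, which also do not give the number of animals or cultures behind each array. After collagenase digestion the SPA fraction sedimented out of the floating cells in a second spin, whereas the SVC fraction was the lower phase of the first. Each was grown in DMEM to 90% confluency, kept for 3 days with insulin, dexamethasone and IBMX, and then for 2 days in DMEM alone. Exposure to the adipogenic mixture is thus common to both groups, no undifferentiated cells were compared here, and both are primary cultures that can hold several cell types.

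Iron circulates bound to transferrin, which is taken up by the transferrin receptor into endosomes, where the metal is reduced and carried into the cytosol. There it is used, stored inside shells of ferritin heavy and light chains, or exported through ferroportin with the help of a copper ferroxidase. When iron is scarce, the iron regulatory proteins bind hairpins called iron-responsive elements. In the transferrin receptor mRNA and some Slc11a2 mRNAs this lengthens the life of the message, whereas in the ferritin and ferroportin mRNAs it blocks translation, which an RNA array does not read. Fat cells need iron for mitochondria and for differentiation, and resident macrophages of fat handle much of the tissue's iron.

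Of the 10 genes, Slc11a1 was 2.71-fold higher in SPAD and Tfrc 2.39-fold lower. The other 8 lay within 2-fold in either direction. All 10 were well above background on both arrays on their brightest probe, which stands for the gene below. Over all 15625 genes well above background on at least 1 array, 16.3% were higher in SPAD by 2-fold or more and 14.1% lower by as much, so 1 of 10 in each direction is no larger a share than among genes at large. The median log2 difference of the 10 genes was -0.08, beside 0.06 for all those genes. With 1 array per group there is no replicate check and no test. The error given after ± is the SD of log2 differences between repeat spots of probes of like signal, 0.16 for the dimmest, 0.08 for the next bin and 0.03 to 0.05 for brighter ones. It covers spot error only, and differences between cultures, extractions or labelling reactions are not in it.

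Both arrays lay on 1 slide and were scaled to the 75th percentile of their signals, 622 in SPAD and 678 in SVCD. Probes well above background made up 64.5% in SPAD and 65.6% in SVCD, and no non-control spot was saturated. Scaled to the 8 detected spike-in probes instead, every log2 difference was 0.84 lower and the median of all genes was -0.77, with 1006 genes at least 2-fold higher and 5993 lower, in place of 2548 and 2206. That shift moves all genes alike, so a gene's place among the others is the same under both scalings. Signals are printed as deposited, before scaling, which adds 0.13 to each log2 difference, so a probe slightly dimmer in SPAD can have a difference above 0. Signs given below are relative to the 75th percentile unless stated, and those of Fth1, Ftl1, Slc11a2 and Ireb2 turned negative with the spike-ins.

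**Figure D1:**
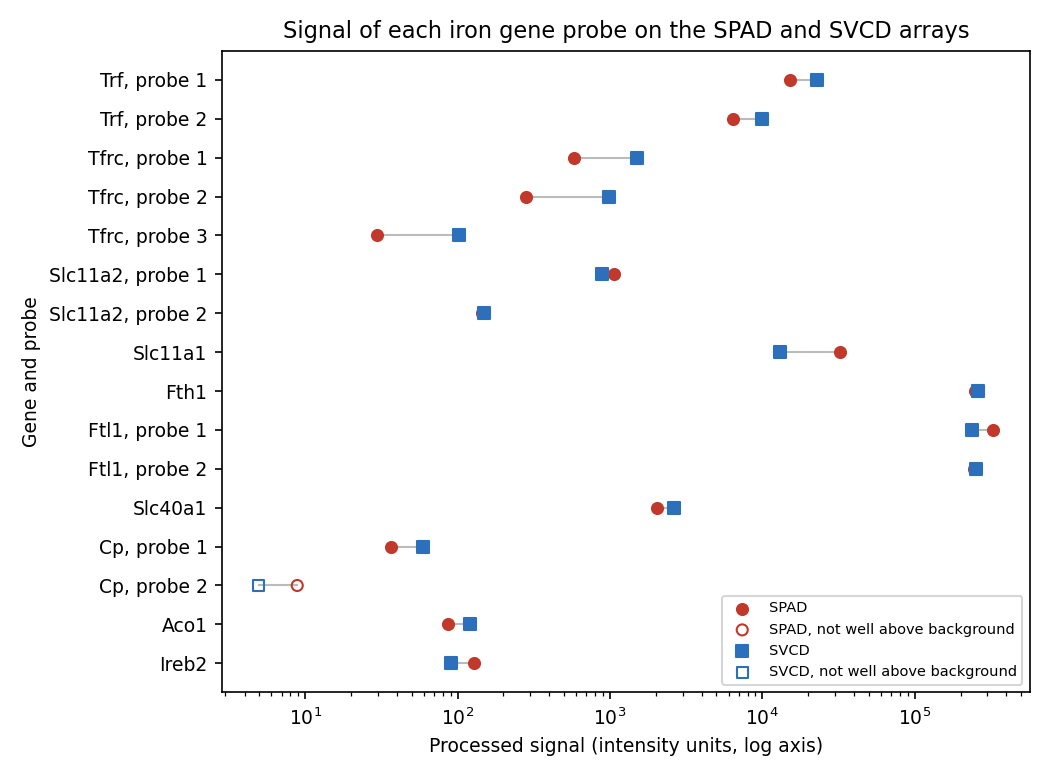
Processed signal (horizontal log axis, intensity units) of the 16 probes of the 10 iron genes, one row per probe, on the SPAD array (circles) and the SVCD array (squares), 1 array per group. The 3 Tfrc probes were all dimmer in SPAD and the Slc11a1 probe was brighter, while the open symbols mark the Cp probe not well above background on either array.

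Trf encodes transferrin, the iron carrier of plasma, which is made mostly by the liver but also by other cells. Its brighter probe had a signal of 15289 in SPAD against 22796 in SVCD, and its other probe 6445 in SPAD against 9896 in SVCD. Both probes were thus somewhat dimmer in SPAD, with log2 differences of -0.45 ± 0.05 and -0.49 ± 0.05. The gap exceeds the spot error on both probes, and is 1.37-fold on the brighter. Liver markers were set beside it. Of 6 hepatocyte genes, 1 (Serpina1a) was well above background, with a signal of 12.1 in SPAD and 15.2 in SVCD, while Alb, Ttr, Apoa1, Fgb and Hamp were not on either array. The summed signal of the list was 31.0 in SPAD and 27.7 in SVCD.

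Tfrc encodes the transferrin receptor, the main gate for iron uptake and a gene used heavily by dividing cells. Its brightest probe was printed 10 times on each array, so that its spot error could be read directly. The 10 spots ran from 523 to 608 in SPAD, with a median of 584, against 1352 to 1604 with a median of 1503 in SVCD. The 2 sets of spots did not overlap, and the log2 difference was -1.26 ± 0.04 (SD, n = 10 spots of 1 array per group). A dimmer probe had 283 in SPAD and 989 in SVCD, a log2 difference of -1.68 ± 0.05, and the dimmest 29.5 in SPAD and 103 in SVCD, a difference of -1.68 ± 0.16. All 3 probes therefore put Tfrc lower in SPAD, by 2.39-fold to 3.20-fold, and it ranked 1421 from the lowest among 14074 genes well above background on both arrays. It was lower under every setting tried, between -1.17 and -1.54, and -2.10 with spike-in scaling.

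**Figure D2:**
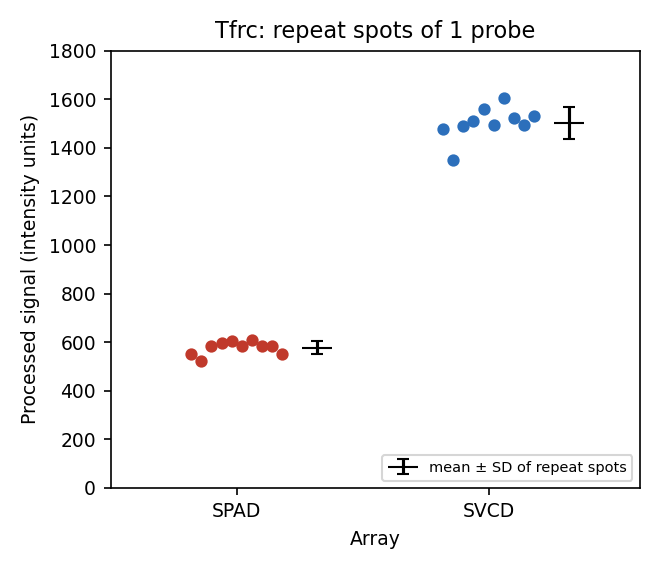
Processed signal (intensity units, axis from 0) of the 10 repeat spots of the brightest Tfrc probe in SPAD and in SVCD, each point 1 spot, with the mean ± SD of the spots beside them. The SPAD spots lie between 523 and 608 and the SVCD spots between 1352 and 1604.

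Slc11a2 encodes DMT1, the transporter that moves ferrous iron out of endosomes. The brighter of its probes gave 1071 in SPAD against 889 in SVCD (log2 difference 0.39 ± 0.04), and the other 145 in SPAD against 150 in SVCD (0.08 ± 0.08). Only the brighter probe thus differed by more than its spot error, by 1.31-fold. Without any scaling the second probe was at -0.05 and the first still at 0.27.

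Slc11a1 encodes NRAMP1, a related metal transporter in the phagosome membrane of macrophages and neutrophils, known in mice for its part in resistance to intracellular microbes. C57BL strains are known to carry a nonfunctional protein variant, which an RNA array does not read. Its single probe had a signal of 32583 in SPAD and 13127 in SVCD, a log2 difference of 1.44 ± 0.05. SPAD was therefore 2.71-fold higher, and the gene ranked 1151 from the highest of the 14074 genes. The difference stayed between 1.27 and 1.44 except with spike-in scaling, where it was 0.60 and under 2-fold.

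**Figure D3:**
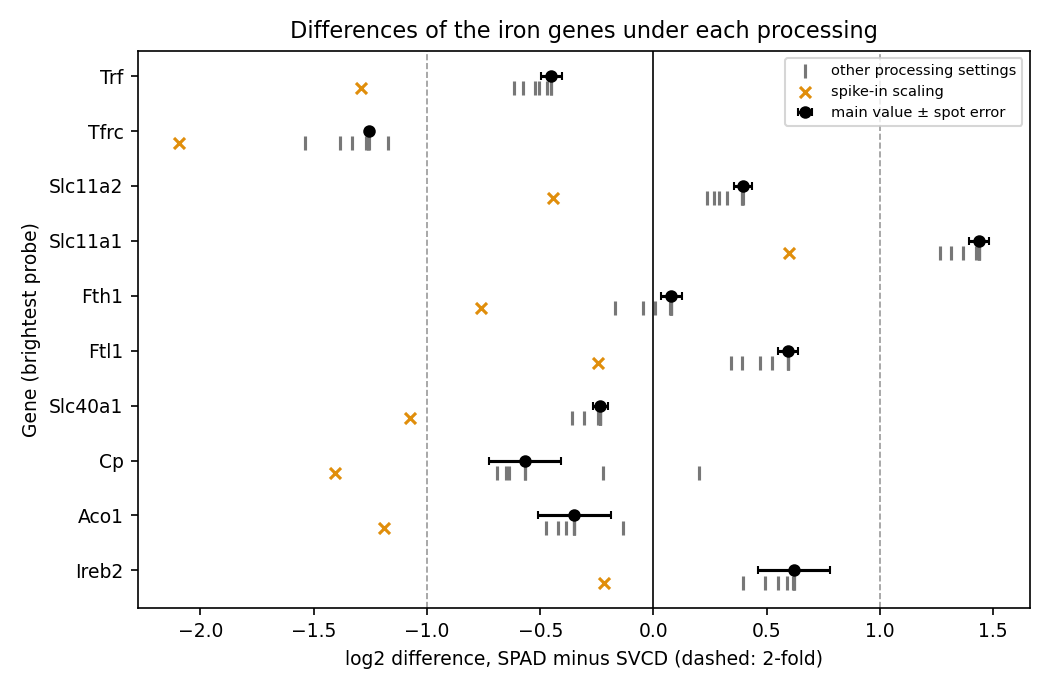
Log2 difference of SPAD minus SVCD for the 10 iron genes on their brightest probe (black points, bars are the spot error), with the values under other processing settings (grey ticks) and under spike-in scaling (orange crosses); dashed lines mark 2-fold. Slc11a1 at 1.44 and Tfrc at -1.26 lie beyond 2-fold, and spike-in scaling moves every gene down by the same amount.

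Slc11a1 and Tfrc are the genes past 2-fold, so the DNA ahead of their starts is shown, from RefSeq on build GRCm38.p6. The table of promoters held 7 of the 10 genes (not Slc40a1, Slc11a2 or Trf). The 250 bases before each start were searched on both strands for TGACNNNGC (antioxidant response element core), CACGTG (E-box), ACGTG (hypoxia response element core, which lies also inside the E-box letters), GAGGAA (core bound by the myeloid factor PU.1), GGGCGG (the GC box) and TGACGT (cyclic AMP response element core). Capitals mark the matches. The Slc11a1 window (chr1:74374953-74375202, plus strand) held 1 match, GAGGAA. For Tfrc, the first of its 2 annotated starts had no match, and the second held the hypoxia element core, the cyclic AMP element core and a GC box, of which the neighbouring first pair is shown (chr16:32608894-32608914, plus strand, 228 to 208 bases before the second start). The window of the first start ends at base 32608895, so this stretch runs across the first start and lies mostly after it.
Slc11a1: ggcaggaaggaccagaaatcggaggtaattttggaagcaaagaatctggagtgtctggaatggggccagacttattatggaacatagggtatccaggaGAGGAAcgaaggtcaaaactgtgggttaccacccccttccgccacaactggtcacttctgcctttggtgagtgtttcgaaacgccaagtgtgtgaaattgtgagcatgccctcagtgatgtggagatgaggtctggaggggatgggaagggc
Tfrc: ACGTGcggaaggaagTGACGT

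These letter runs are common. Of 32851 promoter windows of the same length, 23.3% held GAGGAA, 16.6% ACGTG and 6.47% TGACGT, while 32.7% held GGGCGG, 10.2% TGACNNNGC and 6.02% CACGTG. The GC box also stood ahead of Fth1, Ftl1, Aco1 and Ireb2, and neither TGACNNNGC nor CACGTG was found in any window of the 7 genes.

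The ferritin genes encode the shell that stores iron, and both lay within 2-fold. Fth1 encodes the heavy chain, which oxidises incoming iron, and had 250643 in SPAD against 258824 in SVCD. After scaling the log2 difference was 0.08 ± 0.05, less than 2 times the spot error. Its sign turned with the scaling (-0.05 unscaled and -0.17 after quantile normalization). Ftl1 encodes the light chain, which helps iron to crystallise. One of its probes had 326728 in SPAD and 236036 in SVCD, a log2 difference of 0.59 ± 0.05, but the other had 246733 in SPAD and 252825 in SVCD, a difference of 0.09 ± 0.05. The Ftl1 probes thus disagree by more than the spot error, and the gene was between 1.06-fold and 1.51-fold higher in SPAD. The RefSeq table lists 2 heavy-chain and 3 light-chain ferritin pseudogenes, and binding of such copies by these probes was not tested.

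On the export side, Slc40a1 encodes ferroportin, the one known iron exporter of mammalian cells. Its signal was 2050 in SPAD against 2630 in SVCD, a log2 difference of -0.23 ± 0.03, or 1.18-fold lower in SPAD. Cp encodes ceruloplasmin, a copper ferroxidase that loads exported iron onto transferrin. It was dim, with 36.5 in SPAD and 59.0 in SVCD, a log2 difference of -0.57 ± 0.16. The other Cp probe, which carries another transcript accession, was above background in neither group (8.87 in SPAD and 4.96 in SVCD). That probe therefore carries no direction, and averaging it in gave 0.20, whereas the detected probe alone was negative under every other setting tried.

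Of the sensors, Aco1 encodes iron regulatory protein 1, which is an aconitase when it holds an iron-sulphur cluster. It had 86.9 in SPAD against 121 in SVCD, a log2 difference of -0.35 ± 0.16. Ireb2 encodes iron regulatory protein 2, which is degraded when iron is plentiful, and had 128 in SPAD against 91.2 in SVCD, a difference of 0.62 ± 0.16. The pair thus pointed in opposite directions, Aco1 1.27-fold lower and Ireb2 1.54-fold higher, each by more than 2 spot errors. Both lie among the dimmest probes, where the error is widest.

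Other genes of iron handling were taken from a list of 47 grouped by role, of which 40 were well above background on at least 1 array. In that wider list 10 (25.0%) were higher in SPAD and 9 (22.5%) lower by 2-fold or more, and the median was -0.04. Both shares are above the 16.3% and 14.1% of all genes, and no test was made of that. With spike-in scaling 4 were higher and 17 lower. Scara5 and Erfe were well above background in SVCD alone, and Steap4, Cybrd1, Hephl1, Ftmt, Hamp, Hjv and Tmprss6 were well above background on neither array. Hamp encodes hepcidin, the liver hormone that degrades ferroportin.

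Around the endosome, Steap3 and Steap1 were lower in SPAD by more than 2-fold, as the receptor gene was. Steap3, whose product reduces endosomal iron, had 195 in SPAD and 1393 in SVCD and was 6.56-fold lower. That is a log2 difference of -2.71, while its other probe was at -1.22, so the size depends on the probe. Steap1 was 3.07-fold lower (839 in SPAD, 2813 in SVCD), and Steap2 differed by -0.51 ± 0.04, with its other detected probe at 0.10. In all, 2 of 4 detected genes of this group were lower past the 2-fold mark and 0 higher, with a median of -1.06. Of 7 detected genes for other uptake routes, 4 were lower past that mark and 1 higher, with a median of -1.13. Among all genes 14.1% were lower and 16.3% higher by that size, and no test was made of these small groups. With spike-in scaling 3 of the 4 and 4 of the 7 were lower by as much, and 0 higher in either group. Cd163, the macrophage receptor for haemoglobin bound to haptoglobin, had a log2 difference of -3.42 ± 0.16 (25.7 in SPAD, 300.1 in SVCD), and Lrp1, which takes up haem bound to hemopexin among many ligands, 2.80-fold lower (5252 in SPAD, 16047 in SVCD). Tfr2, the second transferrin receptor, was higher at dim signals, 27.9 in SPAD and 13.4 in SVCD. The remaining lower genes, named after their values were seen, were Lcn2 and Slc39a8, at 2.21-fold and 2.19-fold.

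Among the wider list's export and sensing genes, Heph and Fbxl5 were higher in SPAD. Heph encodes hephaestin, a membrane ferroxidase related to ceruloplasmin, and its brightest probe had 7273 in SPAD against 166 in SVCD, 47.7-fold higher. Its other probes were dim, one at 24.7 in SPAD but not well above background in SVCD, and another at 27.3 in SPAD against 13.6 in SVCD (log2 difference 1.13), so the size depends on the probe. Fbxl5 encodes the iron-sensing ligase subunit that targets iron regulatory proteins for breakdown. It was 2.90-fold higher, with 1291 in SPAD and 487 in SVCD, a log2 difference of 1.53 ± 0.04. Genes that load or open ferritin were almost level. The iron chaperone genes Pcbp1 and Pcbp2 differed by 0.00 ± 0.05 and 0.09 ± 0.05, and Ncoa4, the receptor that sends ferritin to the lysosome, by -0.08 ± 0.03.

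Genes upstream of hepcidin diverged. Bmp6, the growth factor that induces hepcidin in the liver, was 54.9-fold higher on its only probe, with 685 in SPAD and 13.6 in SVCD. The log2 difference was 5.78 ± 0.16. Its SVCD signal was dim, although well above background, so the size of that fold is uncertain. Hfe, the gene of hereditary haemochromatosis, was 2.61-fold lower (551 in SPAD, 1569 in SVCD), and the receptor gene Neo1 was 1.71-fold higher. Among mitochondrial genes, Slc25a37, which encodes the iron importer mitoferrin, was 2.24-fold higher and 1.25 on the log2 scale on its other probe. Another 6 genes of this group, which build iron-sulphur clusters or import iron, lay between -0.30 (Glrx5) and 0.43 (Isca1).

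Of 11 haem genes, 5 were higher in SPAD by 2-fold or more and 1 lower by as much, beside 16.3% and 14.1% of all genes. The other 5 lay between -0.93 and 0.66, and the median was 0.66. With spike-in scaling 2 were higher and 4 lower, and the median was -0.18. Hpx, which encodes the haem scavenger hemopexin, had 482 in SPAD and 33.5 in SVCD and was 15.7-fold higher. Blvrb, a biliverdin reductase, was 3.75-fold higher (25236 in SPAD, 7334 in SVCD), and Fech, the enzyme that inserts iron to form haem, 2.34-fold higher. Blvra and Hmox2, named after their values were seen, went the other way. Blvra, the other biliverdin reductase gene, had log2 differences of -0.93 ± 0.03 and -0.99 on its probes, and Hmox2, the constitutive haem oxygenase gene, -0.63 ± 0.05 and -0.46. The remaining members past 2-fold, named after their values were seen, were Hmox1, Slc48a1 and Alas1. Hmox1, the stress-induced haem oxygenase that frees iron from haem, was 2.22-fold higher with 324981 in SPAD and 159372 in SVCD, a log2 difference of 1.15. Its other probe had a log2 difference of 2.18 (50323 in SPAD, 12134 in SVCD), so the size depends on the probe. The haem transporter gene Slc48a1 was 2.23-fold higher, and Alas1, which starts haem synthesis, 2.11-fold lower.

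**Figure D4:**
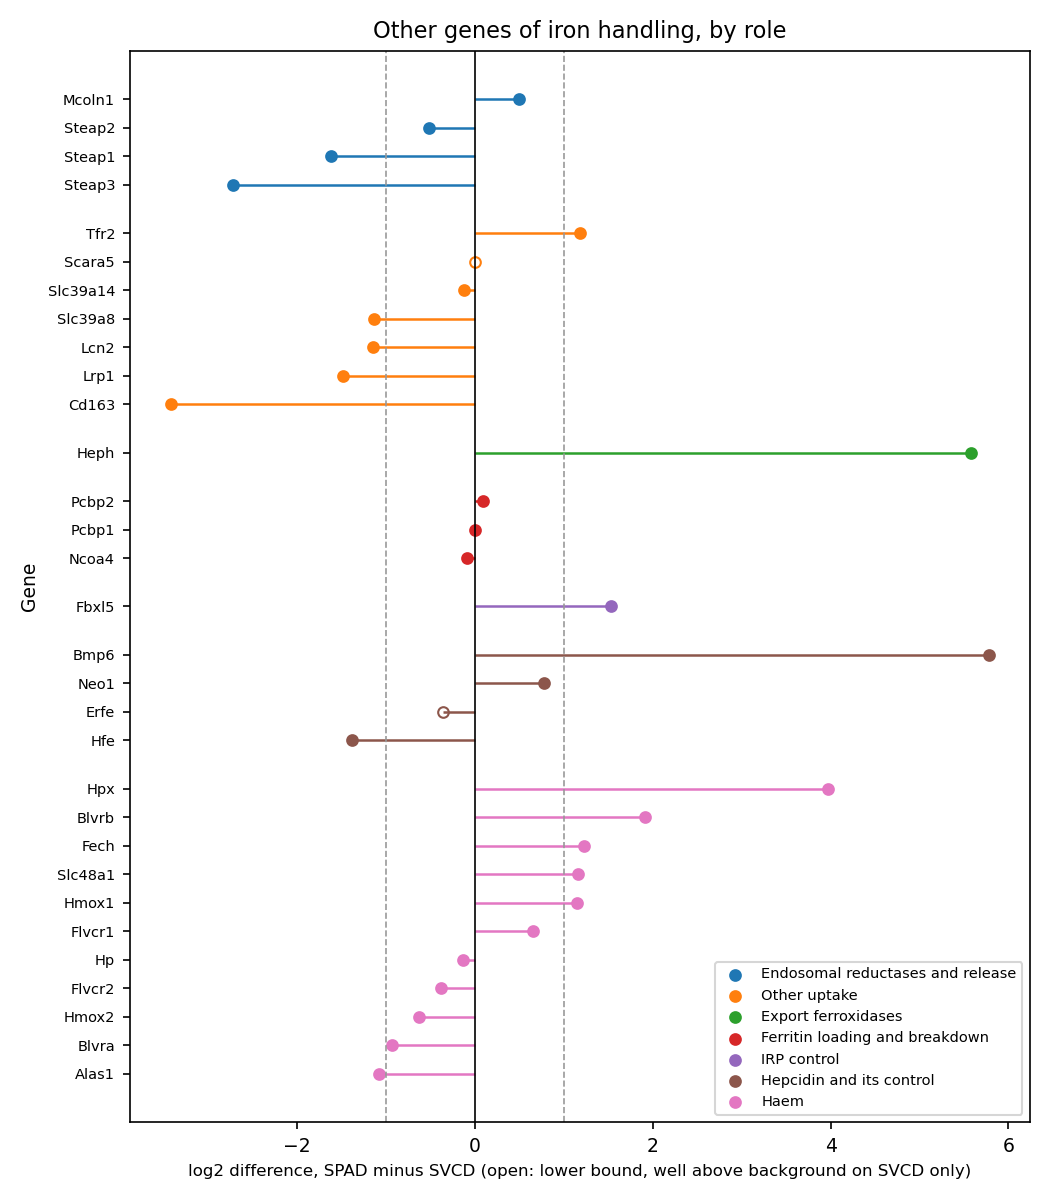
Log2 difference of SPAD minus SVCD (horizontal axis) for the detected genes of the wider iron list other than the mitochondrial group, coloured by role; open symbols are lower bounds of genes well above background on the SVCD array alone (Scara5, at 0, has no fold), and dashed lines mark 2-fold. Bmp6, Heph and Hpx lie far to the right, and Cd163 and Steap3 far to the left.

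Markers of other cells were set beside Slc11a1 and Tfrc. Of 13 detected macrophage genes, 9 were lower in SPAD by 2-fold or more and 0 higher by as much, and their median was -1.32. Among all genes 14.1% were lower and 16.3% higher by that size. With spike-in scaling 10 of the 13 macrophage genes were lower by as much and 0 higher. Their summed signal, before scaling, was 124755 in SPAD and 195355 in SVCD. Lyz2 alone gave 98429 of that in SPAD and 84459 in SVCD, so the sum mostly follows its brightest genes. The widest gaps were those of Fcgr1 (at least 34.6-fold, since SPAD was not well above background), Aif1 (26.4-fold) and Csf1r (16.8-fold), all lower in SPAD. The other Csf1r probes had log2 differences of -4.03 and -1.64. Slc11a1 was thus higher in SPAD while most macrophage genes were lower, although Lyz2, Cd14 and Spic, named after their values were seen, differed by less than 1.5-fold. Lyz2 had 98429 in SPAD and 84459 in SVCD, Cd14 10421 in SPAD and 10567 in SVCD, and Spic 114 in SPAD and 125 in SVCD. The part of these genes' cells in the Slc11a1 difference was not tested. The RNA comes from whole cultures, so more cells of a type and more RNA per cell cannot be told apart.

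All 7 detected genes of dividing cells were lower in SPAD by far more than 2-fold, and their median was -4.85. Among all genes 14.1% were lower by 2-fold or more. With spike-in scaling all 7 were again lower by at least that size. Of the dividing-cell genes, Aurkb was above background in neither group. Their summed signal was 2291 in SPAD and 31211 in SVCD, and Ccna2 was 49.8-fold, Ccnb1 33.7-fold and Cdk1 30.7-fold lower. The size for Cdk1 depends on the probe, since another probe well above background on both arrays had a log2 difference of -1.13. The part of this in the Tfrc difference was not tested. Erythroid genes, which also use Tfrc heavily, were near background. Hbb-bs, Hbb-bt and Klf1 were well above it on neither array, and 4 of 8 were on at least 1, with a median of -0.32 and a summed signal over the list of 207 in SPAD and 340 in SVCD. Of these 4, Epor was 3.04-fold lower, Hba-a2 was 2.06-fold higher, Alas2 (SVCD alone) was at least 1.88-fold lower and Hba-a1 differed by 0.27.

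The white adipocyte and stromal fibroblast genes listed were well above background on both arrays except Lep, although several adipocyte genes were dim in SVCD. Of 9 detected white adipocyte genes, 7 were higher in SPAD by 2-fold or more and 1 (Lpl) lower, and their median was 2.97. Among all genes 16.3% were higher and 14.1% lower by that size. With spike-in scaling 7 of the 9 adipocyte genes were higher and 2 lower. The summed signal of the list, before scaling, was 125083 in SPAD and 56183 in SVCD. Fabp4, named after its values were seen, alone gave 108495 of that in SPAD and 31257 in SVCD. Cfd (7540 in SPAD, 50.6 in SVCD), Plin1 (479 in SPAD, 29.0 in SVCD) and Adipoq (336 in SPAD, 22.7 in SVCD) had the widest gaps, and Lep was well above background on neither array. Of 8 stromal fibroblast genes, whose median was -0.08, 2 (25.0%) were higher and 1 (12.5%) lower by 2-fold or more. Those shares lie near the 16.3% and 14.1% of all genes, given how few genes were listed. Thy1 was 8.72-fold and Dcn 3.65-fold higher, and Col1a2 was 2.26-fold lower. With spike-in scaling 2 of the 8 fibroblast genes were higher and 4 lower. Their summed signal was 34601 in SPAD and 39482 in SVCD.

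**Figure D5:**
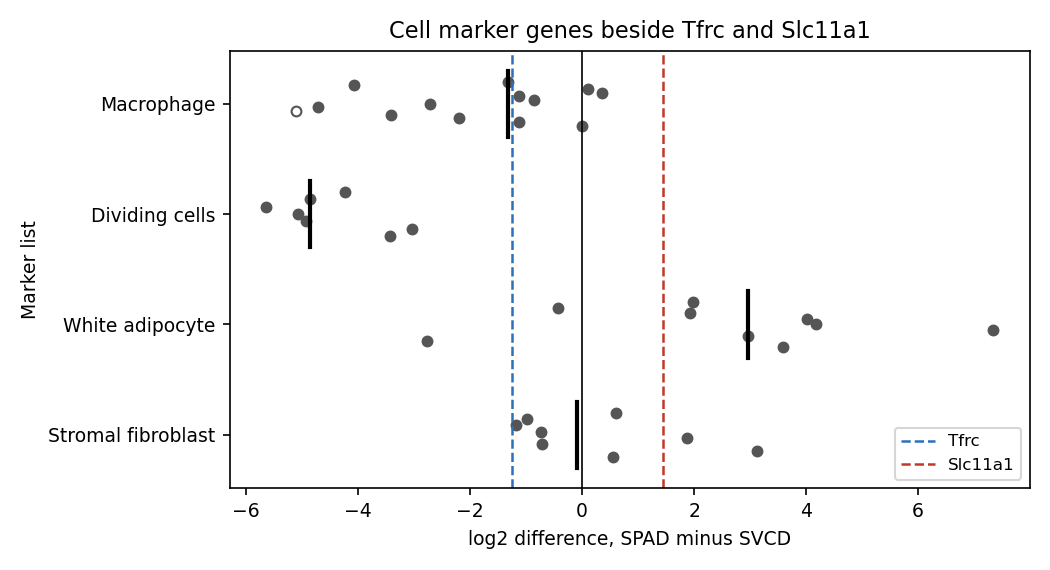
Log2 difference of SPAD minus SVCD for the detected genes of 4 marker lists (points, 1 gene each; open is a bound; thick bars are list medians), with the values of Tfrc (blue dashed line, -1.26) and Slc11a1 (red dashed line, 1.44). Genes of dividing cells all lie left of Tfrc, and no macrophage gene reaches the Slc11a1 value.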

How the data were processed

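Total RNA of each culture was labelled with Cy3 from 30 ng and hybridised to 1 array, per the labels. The submitters' processing notes name Agilent Feature Extraction, version 10.7.3.1, as the image software. Its processed intensity for each spot, already background-subtracted, is in the deposited scanner files, per the file headers. A second deposited table holds log2 values that the authors centred per probe on the 2 arrays, judged from its values, with column medians of 0.16 (SPAD) and -0.16 (SVCD). Its SPAD minus SVCD difference equals the unscaled log2 difference plus 0.12, and the sources used here do not say how the authors chose that shift.

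From the 44397 spots of each array, 1377 controls and the outlier spots (73 in SPAD, 85 in SVCD) were left out, and repeat spots of a probe were averaged. Intensities were divided by the array's 75th percentile and taken to log2. Probes were named by transcript accession, without version, through the RefSeq table (GRCm38.p6): 27506 of 39425 matched a gene. The array design is annotated on mm9, so no gene coordinates are given from it. The probe brightest on average (log2 scale) stands for its gene. Genes well above background on 1 array enter at a bound, the bright value over either the lowest signal well above background on the dim array or the dim probe's own value, whichever is larger, written "at least N-fold". Spot error came from 226 probes printed 10 times, in 6 signal bins, divided by the square root of a probe's spots. It is taken at the mean signal of both arrays and understates the error of genes dim on 1 array. Of the macrophage names, Cd68 had no probe matched here.

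The members and all lists were chosen with earlier results of these data known. Named genes are the 10 members, up to 3 genes per role group and up to 3 per marker list with the widest difference; exceptions are stated, and a few genes of these lists are counted but not reported by name here. No gene is named for a like pattern, since 2 arrays give no measure of likeness. Alternatives were median, spike-in and no scaling, quantile normalization, normexp background correction with limma 3.58.1 (offset 50, on the median spot signal and median local background, the spot signal present in the files), the deposited log2 table, a mean over probes, flagged spots kept, no filter on dim probes, genes detected on both arrays only, and a 1.5-fold size rule. The calculation was tested on simulated data with Python 3.11.15.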

Additional observations from a re-analysis of the deposited data

How the results depend on the processing

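Of 80 member values under 8 settings, 73 had the sign of the value reported. With spike-in scaling 4 of 10 turned, and Fth1 also turned without scaling and after quantile normalization, and Cp with a mean over probes, which takes in a probe not well above background. Tfrc and Slc11a1 kept their sign in all 8. In the 10-gene set, spike-in scaling gave 0 genes at least 2-fold higher and 5 lower in place of 1 and 1, and the 1.5-fold rule gave 3 higher (Slc11a1, Ireb2, Ftl1). The median of these genes, -0.08, was -0.20 without scaling and after quantile normalization, -0.92 with spike-ins and 0.14 with a mean over probes. For the wider iron list, spike-ins gave 4 higher and 17 lower in place of 10 and 9. Its median of -0.04 was -0.17 without scaling, -0.88 with spike-ins, -0.13 after quantile normalization and 0.08 with no filter on dim probes. Over all genes, 2548 higher and 2206 lower became 1006 and 5993 with spike-ins, 1483 and 1430 with normexp, and 4290 and 3491 with the 1.5-fold rule. The median of all genes, 0.06, was -0.0519 without scaling, -0.77 with spike-ins and 0.25 with no filter. The cause of these moves was not tested beyond the scaling shift itself. No paired analysis was possible because each group has 1 array. The number of arrays limits all values, and dim signals limit Cp, Aco1, Ireb2 and the third Tfrc probe.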
